A study of Mus musculus with 27 samples.

Results

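Platelets carry RNA made by megakaryocytes, the large polyploid cells that shed them, and lungs hold both platelets and resident megakaryocytes. The 10 genes described here, Pf4, Ppbp, Gp9, Gp1ba, Gp1bb, Itga2b, Tubb1, Treml1, Gp5 and Gp6, were taken by symbol from tables of 56941 genes measured in whole mouse lung. All 10 were found and all 10 passed the filter on low counts, which 24629 genes passed in all. Polyadenylated RNA of 27 lungs was sequenced, 1 library per mouse as far as the labels say. All mice were male wild-type C57Bl/6J animals of 7 to 8 weeks. They received 5 oropharyngeal instillations, 2 to 3 days apart, of 10 µg of HDM, an extract of house dust mites that provokes allergic airway inflammation, in 50 µl, or of 50 µl of phosphate-buffered saline (PBS). At 24 h after the fifth of these they were given 100 µl of combustion products of burn pit constituents (CP) at 2 mg per ml of saline, or saline alone (SAL), and lungs were taken 24 h later. There were 6 mice in HDM_SAL and 7 in each of PBS_SAL, PBS_CP and HDM_CP, and libraries carry the group and the labels' number as their name.

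Platelets seal damaged vessels and also release chemokines at sites of inflammation. Adhesion starts when the GPIb-IX-V receptor, built from the products of Gp1ba, Gp1bb, Gp9 and Gp5, binds von Willebrand factor, and the collagen receptor encoded by Gp6 then signals with the Fc receptor gamma chain. Itga2b encodes the alpha chain of the fibrinogen receptor, which joins platelets to each other. Pf4 and Ppbp encode chemokines stored in alpha granules, Tubb1 a beta tubulin of the platelet microtubule ring, and Treml1 a receptor of the alpha granule membrane. GATA and ETS family factors are known regulators of megakaryocyte genes.

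The 250 bases before the start of 4 genes are shown, namely Pf4, Ppbp, Gp1ba and Gp5. Pf4 alone had a positive fold change between HDM_CP and HDM_SAL, and Ppbp is its neighbour. Gp1ba and Gp5 were the members in which both motifs searched were found. The sequences are from RefSeq on the GRCm38.p6 build, another build than that of the deposited positions (GRCm39), and all 10 members matched by symbol. Capitals mark AGATAA or TGATAA on either strand (GATA motif) and AGGAAG on either strand (ETS motif), letters that do not overlap between the motifs. The stretches are chr5:90772185-90772434 on the plus strand for Pf4, chr5:90768268-90768517 on the plus strand for Ppbp, chr11:70638872-70639121 on the plus strand for Gp1ba and chr16:30310782-30311031 on the minus strand for Gp5, each written 5′ to 3′ along its gene.
Pf4: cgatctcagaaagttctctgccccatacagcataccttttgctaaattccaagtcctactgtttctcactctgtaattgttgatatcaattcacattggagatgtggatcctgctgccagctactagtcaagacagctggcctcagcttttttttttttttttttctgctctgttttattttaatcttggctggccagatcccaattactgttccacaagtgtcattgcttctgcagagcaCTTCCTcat
Ppbp: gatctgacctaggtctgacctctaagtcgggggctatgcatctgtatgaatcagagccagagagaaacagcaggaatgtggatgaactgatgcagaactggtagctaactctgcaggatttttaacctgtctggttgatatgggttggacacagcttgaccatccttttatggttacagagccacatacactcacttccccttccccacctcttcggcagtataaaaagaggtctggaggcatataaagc
Gp1ba: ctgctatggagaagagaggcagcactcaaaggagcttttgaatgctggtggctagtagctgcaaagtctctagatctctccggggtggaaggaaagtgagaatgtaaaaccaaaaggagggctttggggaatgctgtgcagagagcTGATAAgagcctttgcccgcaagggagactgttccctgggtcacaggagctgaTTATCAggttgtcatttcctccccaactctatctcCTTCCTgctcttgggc
Gp5: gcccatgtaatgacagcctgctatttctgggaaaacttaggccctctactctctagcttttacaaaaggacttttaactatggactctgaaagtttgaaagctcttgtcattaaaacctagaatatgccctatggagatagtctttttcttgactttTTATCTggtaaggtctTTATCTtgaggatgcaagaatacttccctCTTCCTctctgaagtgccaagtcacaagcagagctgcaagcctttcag

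A GATA motif stood in 3 of the 10 members' stretches (Gp1ba, Gp5 and Gp6), against 16.6% of 32851 stretches of the same length. An ETS motif stood in 6 (Pf4, Gp9, Gp1ba, Itga2b, Tubb1 and Gp5), against 29.5% of all stretches, and both stood in 2, against 4.72%. In Pf4 the ETS letters began 9 bases before the start, and in the stretch shown for Ppbp neither set of letters was found. These are matches of letters and were not tested as binding sites. The bases just after the RefSeq start were found within a GENCODE transcript of the same gene for 7 members, and not for Gp9, Tubb1 and Gp5. Whether a transcript begins at that base was not tested.

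Levels of different genes were compared in transcripts per M (TPM; M, mega), which corrects for transcript length. The chemokine genes led, with Ppbp at 31.9 ± 5.87 TPM and Pf4 at 30.8 ± 6.62 TPM (SD, n = 27). Ppbp exceeded Pf4 in 19 of 27 libraries, so their order was not the same in all mice. Tubb1 followed at 14.0 ± 2.33 TPM and Itga2b at 10.8 ± 1.51 TPM, and Tubb1 was the higher of this pair in 24 libraries. Pf4 lay above Tubb1 in all 27 libraries, and Itga2b above Gp9 (5.13 ± 1.35 TPM) in all 27. Treml1 (3.47 ± 0.849 TPM), Gp5 (2.63 ± 0.581 TPM) and Gp1ba (2.13 ± 0.400 TPM) came next. Lowest were Gp1bb (0.846 ± 0.542 TPM) and Gp6 (0.712 ± 0.201 TPM), and neither of these was the higher throughout, since Gp1bb exceeded Gp6 in 12 libraries.

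Libraries were compared in counts per M (CPM), scaled by the trimmed mean of M values. The quasi-likelihood F test of edgeR gave the p-values, adjusted by Benjamini and Hochberg's method over all genes tested, and a gene was called at an adjusted p under 0.05. Fold changes are log2 values ± standard error. In whole lung, fewer platelets or megakaryocytes and less RNA per cell cannot be told apart, and the labels do not mention perfusion. Estimated counts summed to 56.3 M to 84.5 M per library, and the surfactant gene Sftpc (24587 to 32776 TPM) and the club cell gene Scgb1a1 (42029 to 132300 TPM) were high in all 27 libraries. The share of counts in mitochondrial genes was 3.09% to 3.86% in HDM_SAL 50, 54 and 99 and 2.08% to 2.78% in the other 24 libraries. The comparison of HDM_CP with HDM_SAL was therefore also fitted without these 3 libraries. That fit drops 3 of the 6 HDM_SAL libraries, and the standard error of Ppbp was 0.18 in it, against 0.14 in the main fit. An effect of these libraries and of a smaller group therefore cannot be told apart.

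No member passed the test in any of the 7 comparisons made. These were the 4 comparisons of groups, their interaction, and the HDM and CP effects averaged over the other exposure. The same fit called 5.44% of all genes between HDM_SAL and PBS_SAL, 7.87% between HDM_CP and PBS_CP and 16.2% for the averaged HDM effect. It called 0.00812% between PBS_CP and PBS_SAL, 0.00406% between HDM_CP and HDM_SAL, 0.0487% for the averaged CP effect and 0% for the interaction. At an unadjusted p under 0.05 the interaction had 1571 genes, and DESeq2 called 6, none of them a member. With 10 members, 0 called is near these shares.

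The members' values differed most between HDM_CP and HDM_SAL, the allergen-exposed mice with and without combustion products. Here 9 of 10 members had a negative fold change, against 50.4% of all genes, and 8 of 10 were lower at an unadjusted p under 0.05, against 3.99% of all genes. The median over the members was -0.39, and over all genes it was -0.0015. The count at an unadjusted p was chosen after the values were seen. The members were measured in the same mice, so that 8 genes are not 8 separate measurements. Without HDM_SAL 50, 54 and 99, which leaves a smaller HDM_SAL group, the median over the members was -0.31 and over all genes 0.0055. In that fit 8 of 10 members were negative, against 12676 of 25991 genes. At an unadjusted p under 0.05, 4 members were lower, against 1023 of the 25991 genes. These 4 were Gp9 (-0.68 ± 0.24), Gp6 (-0.64 ± 0.26), Treml1 (-0.60 ± 0.23) and Tubb1 (-0.40 ± 0.14). Those no longer below that p were Ppbp (-0.33 ± 0.18), Gp5 (-0.30 ± 0.21), Gp1ba (-0.29 ± 0.18) and Itga2b (-0.28 ± 0.15). With all 3 kept, leaving out each library in turn gave counts of 6 to 8, with 6 without HDM_SAL 50.

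**Figure D1:**
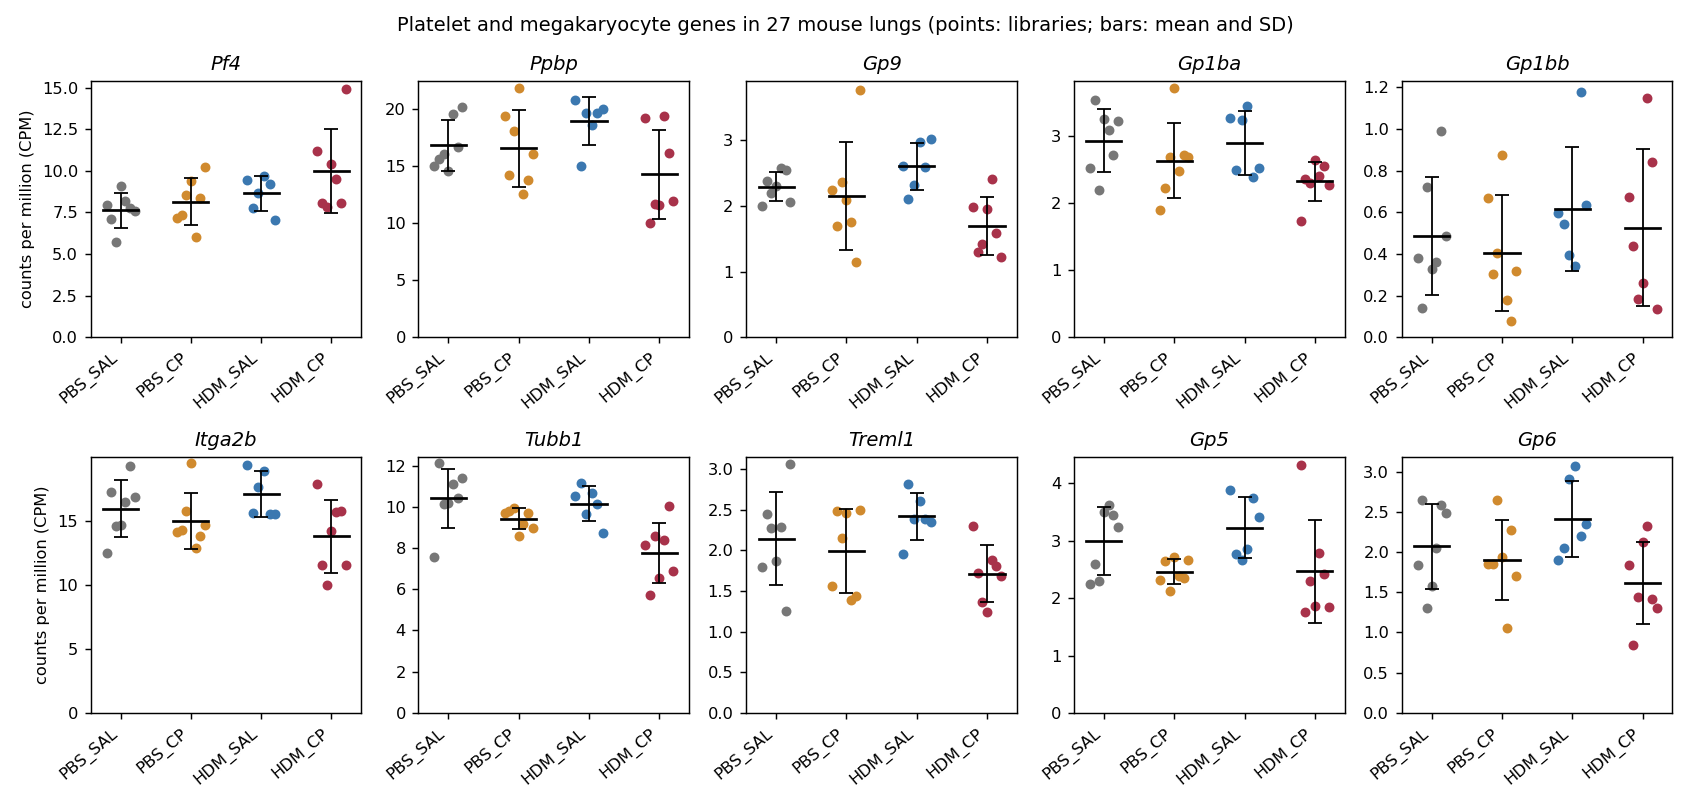
CPM (vertical axes, linear from 0) of the 10 genes in the 4 groups, with 1 point per library and the mean and SD as black bars. Tubb1 and Gp9 lie lower in most HDM_CP libraries than in any HDM_SAL library, while Pf4 does not.

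**Figure D2:**
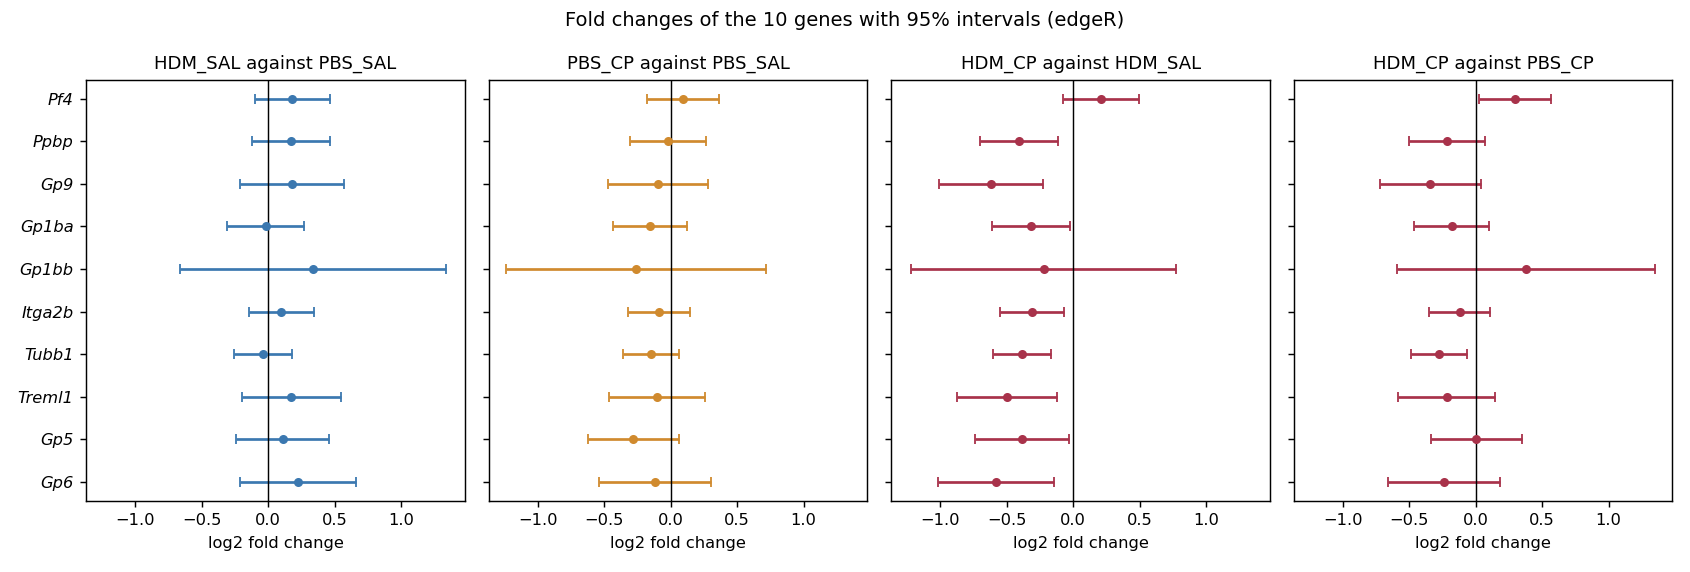
Log2 fold changes (horizontal axes) of the 10 genes (vertical axis) in the 4 comparisons of groups, with 95% intervals. These were computed from edgeR's fold change and F and are not adjusted for the number of genes. Between HDM_CP and HDM_SAL 8 of 10 intervals lie below 0, and none of these genes passed the adjusted test.

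Of the chemokine genes, Ppbp (chromosome 5, 90916377 to 90917922) encodes the precursor of a chemokine that attracts neutrophils. Its lowest, median and highest CPM were 14.5, 16.1 and 20.2 in PBS_SAL, 12.6, 16.0 and 21.8 in PBS_CP, 15.0, 19.6 and 20.8 in HDM_SAL and 9.98, 11.97 and 19.4 in HDM_CP. The HDM_CP libraries formed a low set of 4 (49, 66, 67 and 98, at 9.98 to 11.97 CPM), below every HDM_SAL library, and a set of 3 (45, 96 and 97, at 16.1 to 19.4 CPM) that overlapped HDM_SAL. The difference between HDM_CP and HDM_SAL was -0.41 ± 0.14 (unadjusted p = 0.0085, adjusted p = 0.31, edgeR).

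Pf4 (chromosome 5, 90920294 to 90921242), which encodes platelet factor 4, a heparin-binding chemokine, begins 2372 bases after the end of Ppbp on the same strand. Its lowest, median and highest CPM were 5.70, 7.79 and 9.06 in PBS_SAL, 6.02, 8.36 and 10.2 in PBS_CP, 7.06, 8.95 and 9.72 in HDM_SAL and 7.84, 9.50 and 14.9 in HDM_CP. No HDM_CP library lay below the lowest HDM_SAL library, and 3 lay above the highest. Pf4 was the only member with a positive fold change between HDM_CP and HDM_SAL (0.21 ± 0.14, adjusted p = 0.67, edgeR). Against PBS_CP its HDM_CP value was 0.30 ± 0.13 higher (adjusted p = 0.19, edgeR), and the averaged HDM effect was 0.24 ± 0.10 (adjusted p = 0.091, edgeR). Neither passed the test, and the value against PBS_CP ranged from 0.17 to 0.36 with 1 library left out.

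The ratio of Pf4 to Ppbp within each library does not depend on library scaling. It was chosen after the values of both genes were seen, so its differences are given without a test. CPM is not corrected for transcript length, so the ratio compares libraries and not the levels of both genes. The lowest, median and highest ratio of CPM values were 0.354, 0.456 and 0.624 in PBS_SAL, 0.369, 0.479 and 0.640 in PBS_CP, 0.352, 0.461 and 0.523 in HDM_SAL and 0.490, 0.672 and 1.25 in HDM_CP. Of 7 HDM_CP libraries 5 lay above the highest HDM_SAL library, and HDM_CP 98 stood highest. On the log2 scale the mean was -0.50 ± 0.49 in HDM_CP and -1.13 ± 0.21 in HDM_SAL (SD), a difference of 0.63, which was 0.49 without HDM_CP 98. Within the runs of library numbers 45 to 64, 66 to 81 and 96 to 105, which the labels do not call batches, this difference was 0.54, 0.57 and 0.73. Between HDM_CP and PBS_CP the difference was 0.51, and within the runs it was 0.61, 0.78 and 0.11. Between PBS_CP and PBS_SAL it was 0.12, and within the runs -0.14, 0.0055 and 0.57.

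**Figure D3:**
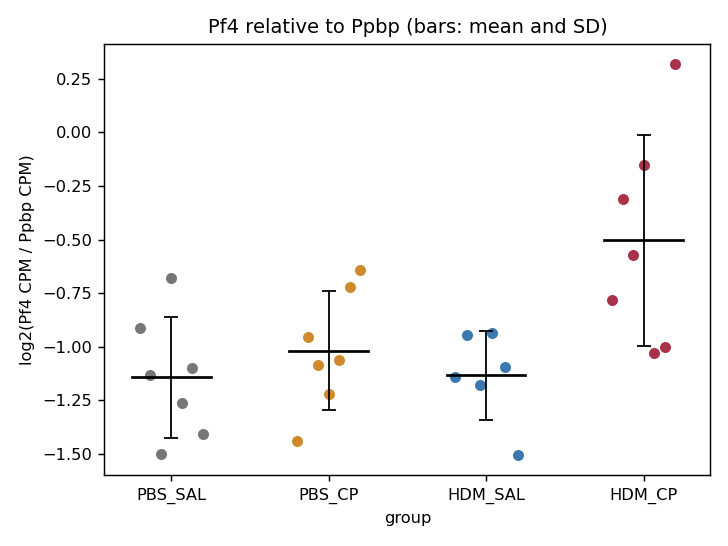
Log2 ratio of Pf4 CPM to Ppbp CPM (vertical axis) in the 4 groups (horizontal axis), with 1 point per library and the mean and SD as black bars. HDM_CP holds 5 of 7 libraries above the highest HDM_SAL library and is the group with the widest spread.

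The receptor for von Willebrand factor is described by 4 genes. Gp9 (chromosome 6, 87755054 to 87756750), which encodes its GPIX chain, had its lowest, median and highest CPM at 1.99, 2.31 and 2.57 in PBS_SAL and 1.14, 2.09 and 3.77 in PBS_CP. In HDM_SAL they were 2.10, 2.59 and 3.02, and in HDM_CP 1.22, 1.58 and 2.41. Of 7 HDM_CP libraries 6 lay below the lowest HDM_SAL library, and HDM_CP 96 did not. The difference was -0.62 ± 0.19 (unadjusted p = 0.0032, adjusted p = 0.22, edgeR), the member farthest below 0 in this comparison. Gp5 (chromosome 16, 30126503 to 30129597), which encodes the GPV chain that thrombin cleaves, ran from 2.66 to 3.89 CPM with a median of 3.14 in HDM_SAL and from 1.77 to 4.33 CPM with a median of 2.29 in HDM_CP. In PBS_SAL it ran from 2.25 to 3.62 CPM (median 3.23), and in PBS_CP from 2.13 to 2.72 CPM (median 2.39). HDM_CP 45 was the highest of the 27 libraries, while 5 other HDM_CP libraries lay below all of HDM_SAL. The Gp5 difference was -0.38 ± 0.17 (adjusted p = 0.45, edgeR).

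Gp1ba (chromosome 11, 70529948 to 70532862), which encodes the chain that binds von Willebrand factor, ran from 2.38 to 3.44 CPM (median 2.88) in HDM_SAL and from 1.73 to 2.63 CPM (median 2.35) in HDM_CP. Its range was 2.19 to 3.53 CPM in PBS_SAL and 1.90 to 3.71 CPM in PBS_CP, so all groups overlapped. The difference between HDM_CP and HDM_SAL was -0.32 ± 0.14 (adjusted p = 0.45, edgeR). Gp1bb (chromosome 16, 18439067 to 18441153), which encodes the beta chain, rests on 6 to 97 estimated counts per library and overlaps Septin5 on the same strand, whose mean estimated count was 941. Its reads cannot be separated from those of Septin5 here, and its value is uncertain. It ran from 0.344 to 1.18 CPM in HDM_SAL and from 0.137 to 1.15 CPM in HDM_CP, with a difference of -0.22 ± 0.49 (adjusted p = 0.93, edgeR) whose sign turned without HDM_SAL 99 (0.067).

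The collagen receptor gene Gp6 (chromosome 7, 4366964 to 4400743) had its lowest, median and highest CPM at 1.91, 2.27 and 3.07 in HDM_SAL and 0.848, 1.44 and 2.32 in HDM_CP. In PBS_SAL it ran from 1.31 to 2.65 CPM and in PBS_CP from 1.05 to 2.64 CPM. Of the HDM_CP libraries 5 of 7 lay below every HDM_SAL library, and the difference was -0.58 ± 0.21 (unadjusted p = 0.011, adjusted p = 0.33, edgeR). Itga2b (chromosome 11, 102344123 to 102360948), the alpha chain gene of the fibrinogen receptor, ran from 15.5 to 19.4 CPM (median 16.6) in HDM_SAL and from 9.99 to 17.9 CPM (median 14.2) in HDM_CP. In PBS_SAL its range was 12.5 to 19.3 CPM and in PBS_CP 12.9 to 19.5 CPM. The lowest 3 HDM_CP libraries (66, 49 and 98, at 9.99 to 11.6 CPM) were below all 20 libraries of the other groups, and the difference from HDM_SAL was -0.31 ± 0.12 (adjusted p = 0.35, edgeR).

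Tubb1 (chromosome 2, 174292488 to 174299675), whose tubulin forms the ring that gives platelets their disc shape, had the smallest p of the members. Its lowest, median and highest CPM were 7.57, 10.4 and 12.1 in PBS_SAL, 8.58, 9.70 and 9.96 in PBS_CP, 8.74, 10.3 and 11.1 in HDM_SAL and 5.72, 8.15 and 10.1 in HDM_CP. HDM_CP 97 alone lay within the HDM_SAL range, and the other 6 lay below it. The difference was -0.39 ± 0.11, a ratio of 0.765 with a 95% interval of 0.658 to 0.889 (unadjusted p = 0.0011, adjusted p = 0.18, edgeR). DESeq2 called it (-0.39, adjusted p = 0.043), and edgeR's test and the other settings run did not, with adjusted p of 0.088 to 0.42 when each library was left out. Against PBS_CP the HDM_CP value was -0.28 ± 0.10 (adjusted p = 0.097, edgeR), called with sample quality weights (-0.34, adjusted p = 0.039, limma voom) and without HDM_CP 97 (-0.35, adjusted p = 0.026, edgeR).

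Treml1 (chromosome 17, 48666944 to 48674204), which encodes TLT-1, a receptor that moves to the surface of activated platelets, ran from 1.96 to 2.81 CPM (median 2.38) in HDM_SAL and from 1.24 to 2.30 CPM (median 1.72) in HDM_CP. In PBS_SAL its range was 1.26 to 3.06 CPM and in PBS_CP 1.38 to 2.49 CPM, so both PBS groups overlapped both HDM groups. Its difference between HDM_CP and HDM_SAL was -0.50 ± 0.18 (adjusted p = 0.33, edgeR), with 6 of 7 HDM_CP libraries below the lowest HDM_SAL library.

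The low values of HDM_CP were not spread evenly over its mice. In HDM_CP 66 and 98 9 members lay below the lowest HDM_SAL library, and in HDM_CP 49 8 did. The count was 7 in HDM_CP 67, 4 in HDM_CP 45 and 97, and 2 in HDM_CP 96. No such count over all genes is given for these libraries, so the counts describe the members alone. Differences between HDM_CP and HDM_SAL within the runs of library numbers, computed after the values were seen, were negative for 8, 10 and 9 of 10 members, with medians of -0.34, -0.63 and -0.38. The second run holds 2 HDM_CP libraries and 1 HDM_SAL library, so its value rests on 1 control. The first holds 2 HDM_CP and 3 HDM_SAL libraries, and the third 3 and 2. The share of all genes that were negative within each run is not given, so these counts have no background.

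The averaged CP effect, which shares all HDM_CP and HDM_SAL libraries with the comparison above, had 9 of 10 members negative (50.1% of all genes) and 8 lower at an unadjusted p under 0.05 (3.73% of all genes), with a median of -0.25. Tubb1 was at -0.27 ± 0.07 (adjusted p = 0.17, edgeR) and Gp5 at -0.33 ± 0.12 (adjusted p = 0.36, edgeR). DESeq2 called Tubb1 (-0.27, adjusted p = 0.044), and edgeR called Gp5 without HDM_CP 45 (-0.43, adjusted p = 0.049). In PBS mice alone, PBS_CP against PBS_SAL, 9 of 10 members were negative (49.3% of all genes), none had an unadjusted p under 0.05, and the median was -0.11. The number of negative members was 7 to 9 with 1 library left out and 8 on the TPM scales. Gp5 had the smallest p among the members, at -0.28 ± 0.17 (unadjusted p = 0.10, adjusted p = 0.99, edgeR). Whether the CP effect differed between HDM and PBS mice was tested by the interaction, in which 8 of 10 members were negative (50.2% of all genes) and none passed. The interaction was -0.52 ± 0.27 for Gp9 (adjusted p = 0.78, edgeR) and -0.39 ± 0.20 for Ppbp (adjusted p = 0.78, edgeR), with 95% intervals of -1.07 to 0.022 and -0.80 to 0.023. A difference in the CP effect between HDM and PBS mice was therefore not shown for these genes.

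No change of the members was shown with HDM alone. Between HDM_SAL and PBS_SAL 8 of 10 were positive (52.7% of all genes), with a median of 0.17 and values from -0.04 for Tubb1 to 0.34 for Gp1bb. None had an unadjusted p under 0.05. The 95% interval was -0.10 to 0.46 for Pf4, -0.12 to 0.47 for Ppbp and -0.25 to 0.18 for Tubb1. It was wider for Gp9 (-0.21 to 0.57), Gp6 (-0.21 to 0.66) and Gp1bb (-0.66 to 1.34), so increases of that size were not excluded. Because HDM_SAL is the control of the HDM_CP comparison, these values and those above share its 6 libraries.

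The members were set beside 22 other genes of megakaryocytes and their precursors, and beside 16 platelet genes that other lung cells also express. Between HDM_CP and HDM_SAL 11 of the 22 other megakaryocyte genes were negative, with a median of -0.0045 and none called. Alox12, the platelet 12-lipoxygenase gene, was lower at an unadjusted p under 0.05 (-0.39 ± 0.11, adjusted p = 0.21, edgeR), and P2ry1, an ADP receptor gene, was at 0.22 ± 0.12 (adjusted p = 0.55, edgeR). Of the 16 shared platelet genes 14 were positive, with a median of 0.19, and none was called. Ptgs1, the cyclooxygenase 1 gene, was at 0.47 ± 0.11 (adjusted p = 0.12, edgeR), called by DESeq2 (adjusted p = 0.0099) and in 2 of the 27 fits that left out a library. Tgfb1, a cytokine gene, was at 0.24 ± 0.08 (adjusted p = 0.23, edgeR). Without HDM_SAL 50, 54 and 99 the median was -0.019 for the 22 genes, with 3 lower and 1 higher at an unadjusted p, and 0.15 for the 16 genes, with 1 lower and 3 higher. Alox12 was then at -0.37 ± 0.14, P2ry1 at 0.17 ± 0.15, Ptgs1 at 0.61 ± 0.13 and Tgfb1 at 0.15 ± 0.08, none of them called. The 10 members thus had lower medians than both other lists in these libraries, which is a description and was not tested.

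**Figure D4:**
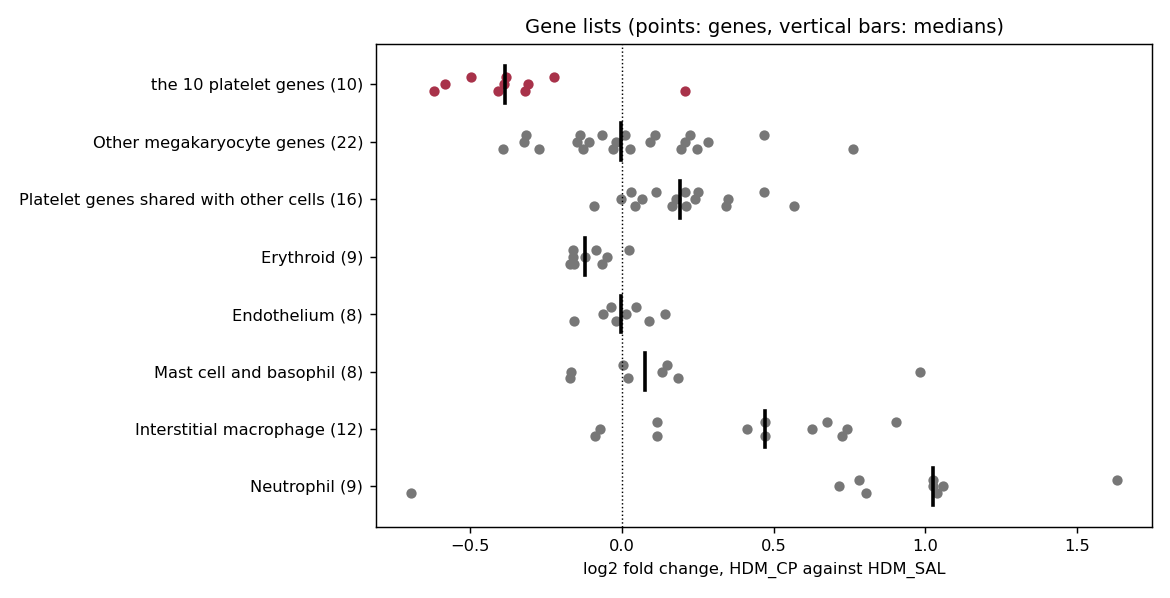
Log2 fold change between HDM_CP and HDM_SAL (horizontal axis) of the genes of 8 lists (vertical axis, with the number tested), with 1 point per gene and the median as a vertical bar. The platelet genes have a median of -0.39, other megakaryocyte genes of -0.0045 and neutrophil genes of 1.02.

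Between HDM_SAL and PBS_SAL 3.19% of all genes were called higher. Among them were 2 of the 22 other megakaryocyte genes, P2rx1, an ATP-gated channel gene (1.05 ± 0.22, adjusted p = 0.0050, edgeR), and Rab27b, a secretory granule GTPase gene (0.56 ± 0.09, adjusted p = 0.00067, edgeR). Of the 16 shared genes 4 rose and 1 fell. The risers were Tbxas1, the thromboxane synthase gene (0.78 ± 0.19), Selp, the P-selectin gene (0.70 ± 0.18), F13a1, a coagulation factor XIII chain gene (0.56 ± 0.15), and Runx1, a transcription factor gene (0.32 ± 0.09). Rasgrp2, a guanine nucleotide exchange factor gene, fell by 0.25 ± 0.07 on the log2 scale. Without HDM_SAL 50, 54 and 99 P2rx1 (1.06, adjusted p = 0.15), Rab27b (0.49, adjusted p = 0.087) and these 5 shared genes were no longer called by edgeR, in a fit that called 34 genes in all against 1339 with these libraries. Leaving out HDM_SAL 99 alone brought that number to 602. The fit without HDM_SAL 50, 54 and 99 has a smaller HDM_SAL group, so its lost calls cannot be assigned to these libraries. F13a1 also missed the threshold in 5 of the other processing settings, Rasgrp2 in 4, Runx1 and Tbxas1 in 2 each and Selp in 1. With 1 library left out, F13a1 and Rasgrp2 missed it in 5 of 27 fits, Runx1 in 4 and Tbxas1 in 1.

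Between HDM_CP and PBS_CP 5 of the 22 other megakaryocyte genes rose, and 5.6% of all genes were called higher. They were P2rx1 (1.03 ± 0.21), F2rl2, a thrombin receptor family gene (0.69 ± 0.17), P2ry12, the ADP receptor gene (0.55 ± 0.16), P2ry1 (0.45 ± 0.11) and Rab27b (0.37 ± 0.09). Of the 16 shared genes 8 rose and 1 fell, and those with the smallest p were Tbxas1 (1.27 ± 0.18), Vwf, the von Willebrand factor gene of endothelium and megakaryocytes (0.53 ± 0.09), Ptgs1 (0.59 ± 0.10) and Selp (0.95 ± 0.17). P2ry12 missed the threshold in 4 of the other processing settings, and P2ry1 and Rab27b in 1 each. The call of P2ry12 was also lost in 9 of 27 fits with 1 library left out. F5, a coagulation factor gene among the 8 and named after its values were seen, was called in 7 of 13 other settings. The members gave 3 positive and 7 negative values in the same comparison, with a median of -0.20.

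Summed levels of other cells' markers are given beside the members. The 12 interstitial macrophage genes, which include C1qa, summed to 428 to 865 TPM in HDM_SAL and 566 to 1116 TPM in HDM_CP, against 481 to 651 TPM in PBS_SAL and 471 to 662 TPM in PBS_CP. Between HDM_CP and HDM_SAL 6 of the 12 were higher at an unadjusted p under 0.05, against 5.7% of all genes, and none was called, with a median of 0.47. Neutrophil genes summed to 170 to 258 TPM in HDM_SAL and 236 to 750 TPM in HDM_CP, and 6 of 9 tested were higher at an unadjusted p, with a median of 1.02 and none called. In PBS_SAL they summed to 110 to 295 TPM and in PBS_CP to 148 to 294 TPM. Erythroid genes, a measure of blood in the lung, summed to 7747 to 42554 TPM in HDM_SAL and 11535 to 29197 TPM in HDM_CP, with 8 of 9 negative and a median of -0.12. In PBS_SAL they summed to 17308 to 49866 TPM and in PBS_CP to 18659 to 37736 TPM. Endothelial genes had a median of -0.0042 between HDM_CP and HDM_SAL and summed to 2214 to 4015 TPM and 2740 to 3353 TPM in HDM_SAL and HDM_CP. The mast cell and basophil list summed to 218 to 332 TPM in HDM_SAL and 256 to 307 TPM in HDM_CP. Its gene Mcpt4 was listed at 0 in 17 of 27 libraries, Tpsb2 in 15 and the neutrophil gene Ly6g in 13. The 5 lung tissue genes, which include Sftpc and Scgb1a1, summed to 107330 to 167580 TPM in HDM_SAL and 77595 to 142820 TPM in HDM_CP. Between these groups 5 of 5 were negative, with a median of -0.12 and none called. At an unadjusted p under 0.05, 2 of the 5 were lower, against 3.99% of all genes. Without HDM_SAL 50, 54 and 99 the medians between HDM_CP and HDM_SAL were -0.60 for erythroid (9 of 9 negative) and -0.17 for endothelial genes. They were 0.54 for macrophage genes, 0.87 for neutrophil genes and -0.053 for lung tissue genes (5 of 5 negative), with none called. The part of these cells in the members' values was not tested.

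Whether the members vary together between mice of the same group was examined with deviations of log2 CPM from the group means over 27 libraries. Of 45 pairs 41 had a positive Pearson r, with a median of 0.28. No values for pairs of other genes are given beside this count, so it has no background. A permutation test within groups, adjusted over the 45 pairs, was passed by 3 pairs. These were Ppbp with Itga2b (r = 0.72, rho = 0.68, permutation p = 0.00029, adjusted p = 0.013), Ppbp with Gp1bb (r = 0.65, rho = 0.68, permutation p = 0.0022, adjusted p = 0.033) and Ppbp with Gp5 (r = 0.61, rho = 0.57, permutation p = 0.0019, adjusted p = 0.033). The Spearman rho of these pairs had adjusted permutation p of 0.023, 0.023 and 0.041. Without HDM_CP 96 and 45, the 2 libraries farthest from the median of Ppbp, r was 0.65, 0.59 and 0.48. Within the 3 runs of library numbers it was 0.75, 0.76 and 0.63 for Itga2b, 0.45, 0.75 and 0.78 for Gp1bb, and 0.70, 0.42 and 0.63 for Gp5. Gp1bb rests on 6 to 97 estimated counts and cannot be separated from Septin5, so its pair is uncertain. No pair with Pf4 passed (r from -0.15 to 0.33). Its r with its neighbour Ppbp was 0.21 (permutation p = 0.41, adjusted p = 0.56), and within the runs it was 0.71, 0.50 and -0.55.

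**Figure D5:**
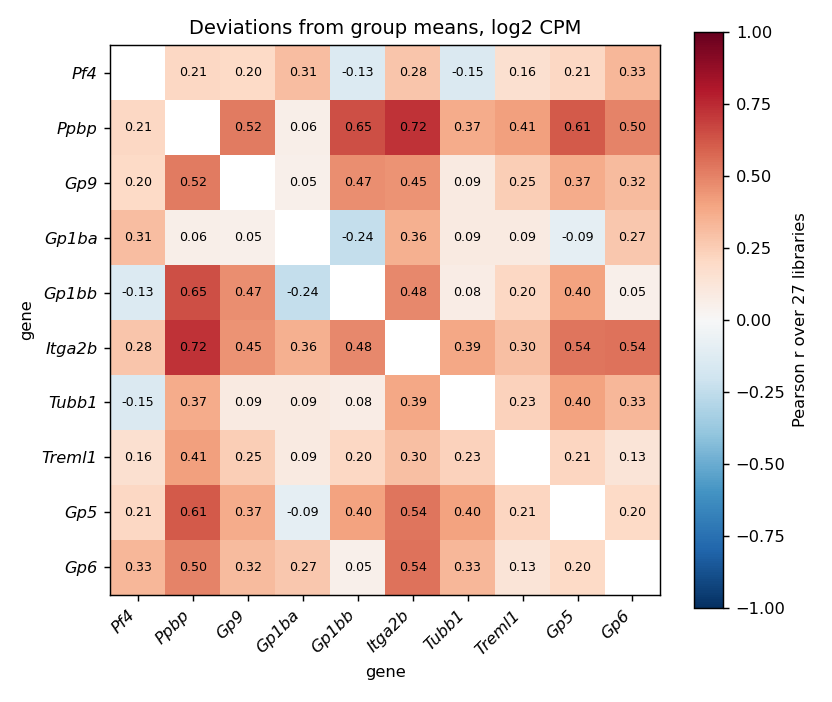
Pearson r of deviations from group means of log2 CPM between the 10 genes (both axes) over 27 libraries, in colour and as printed values. The pairs of Ppbp with Itga2b (0.72), Gp1bb (0.65) and Gp5 (0.61) hold the highest values, and the row of Pf4 lies between -0.15 and 0.33. Values of Gp1bb are uncertain, since it overlaps Septin5.

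None of 40 correlations of the members with the erythroid, interstitial macrophage, mast cell and basophil, and endothelial lists passed the same test. Among 14300 genes ranked by likeness to the mean of the members' deviations over the 27 libraries, the 10 most alike included Eef1d (r = 0.75), Paf1, Tnnt3, Acbd4, Alox12 (r = 0.72), Czib, Rsl24d1, Nrgn (r = 0.71) and Irf2bp1 (r = 0.69). These r values are given as a description, since the genes share their libraries and scaling. Alox12 was also on the list of other megakaryocyte genes, and the list placed no other gene among these 10.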

How the data were processed

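Whole-lung RNA of 27 mice was sequenced after polyA selection, with a plan, per the labels' protocols, of 20 M pairs of 150-base reads. The submitters' processing notes name StringTie 2, STAR and GRCm39. The authors deposited estimated counts, whole numbers summing to 56.3 M to 84.5 M per library, about 4 times the planned pairs, so counting error may look smaller than it is. The deposited TPM values sum to between 999899 and 999999 per library and carry no depth. The 310 genes without a symbol held 0.0602% of counts and were kept. Use of strand in counting is not stated in the labels, so reads of overlapping genes may be mixed.

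The estimated counts were rounded and fitted in R 4.3.3 with edgeR 4.0.16 (trimmed mean of M values, filterByExpr with a minimum count of 10, robust quasi-likelihood, 4 group means, all 27 libraries, two-sided, threshold 0.05), with code tested on simulated data. The labels give each library its own number, and nothing pairs libraries. The p-values of edgeR set differences between groups against the spread between libraries, estimated over all 4 groups. Correlations used a prior count of 2 and 100000 permutations within groups, two-sided. Alternatives used DESeq2 1.42.0 and limma 3.58.1, other scaling, filters, TPM, runs of library numbers, only the groups compared and leaving out each library. Counts divided by 4, the 3 libraries left out together, the Pf4 to Ppbp ratio, the values within runs and the counts at an unadjusted p were added after seeing the data. Members, lists and tests were chosen with earlier results of these data known. All members were named. From the other 2 platelet lists every called gene was named where there were 5 or fewer, otherwise the 4 with the smallest p, or the 2 with the smallest p where none was called. The genes most alike were the 10 with the highest r among genes whose mean log2 CPM was 0 or more, without predicted genes, and 1 of them is not reported here. Other marker lists were summarized by sums and counts.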

Additional observations from a re-analysis of the deposited data

Results flagged for a closer look

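In 5 of 40 groups of a member's CPM values, 1 library stood apart from the others of its group by Dixon's test at the 95% level, and chance gives about 1 in 20 groups. HDM_CP 45 was the lowest of its group for Gp1ba (1.731 CPM) and the highest for Gp5 (4.327 CPM). HDM_SAL 99 was the highest of its group for Gp1bb (1.175 CPM), the gene that overlaps Septin5. PBS_CP 75 was the highest of its group for Itga2b (19.52 CPM), and PBS_SAL 61 the lowest of its group for Tubb1 (7.572 CPM).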

How the results depend on the processing

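No member was called in any comparison by edgeR under the other scalings, filters, covariate and groups fitted, and the exceptions by other tools or with fewer libraries follow. DESeq2 called 1 member, Tubb1, between HDM_CP and HDM_SAL and for the averaged CP effect, and limma voom with sample quality weights called 1, Tubb1, between HDM_CP and PBS_CP. Leaving out each library gave 0 to 1 called members between HDM_CP and PBS_CP (1 without HDM_CP 97) and 0 to 1 for the averaged CP effect (1 without HDM_CP 45). The members lower at an unadjusted p under 0.05, 8 in both comparisons, numbered 5 for the averaged CP effect with log2(TPM + 0.1), and 4 between HDM_CP and HDM_SAL and 5 for the averaged CP effect without HDM_SAL 50, 54 and 99. The sign of Gp1bb between HDM_CP and HDM_SAL turned without these 3 libraries (0.048) and ranged from -0.54 to 0.067 over the fits that left out 1 library. Between HDM_SAL and PBS_SAL Gp1ba turned with the run as covariate (0.020) and ranged from -0.082 to 0.032, and Tubb1 ranged from -0.10 to 0.0029, with 1 library left out. The interaction of Pf4 ranged from -0.0064 (without HDM_CP 98) to 0.18. The sign of the interaction of Gp1bb turned in 2 of 12 other settings and in 11 of 27 fits with 1 library left out. For the averaged HDM effect such fits turned Gp6 in 12 cases, Itga2b and Treml1 in 7 each and Ppbp in 5. Gp5 and Gp9 turned in 1 each. Over the 12 other settings that effect turned in 2 each for Gp6 and Treml1 and in 1 for Gp5. Between PBS_CP and PBS_SAL the sign of Itga2b turned in 3 of 13 other settings. There Ppbp turned in 5 of 27 fits with 1 library left out, and Gp1bb and Gp9 in 1 each. Between HDM_CP and PBS_CP Gp5, near 0 in the main fit (0.0057), turned in 6 of 13 other settings and in 6 of 27 fits with 1 library left out. The pairs of members that passed the correlation test fell from 3 to 1 with log2(TPM + 1). They fell to 2 when each pair was computed without the 2 libraries farthest from the median of its first gene. The cause of these changes was not tested.

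Counts of all genes called moved by over 1.5 times as follows. Between HDM_SAL and PBS_SAL (1339) they were 2009 with DESeq2, 764 with log2(TPM + 1) and no filter and 34 without the 3 libraries, and 602 to 1656 with 1 library left out. Between PBS_CP and PBS_SAL (2) they were 1 with no filter, 32 with DESeq2, 13 with voom, 4 in a fit of these 2 groups alone, 4 with log2(TPM + 0.1), 1 with log2(TPM + 1) and no filter, 1 without the 3 libraries, and 1 to 5 with 1 left out. Between HDM_CP and HDM_SAL (1) they were 192 with DESeq2, 3 with voom, 2 with the run as covariate, 2 with log2(TPM + 1) with or without a filter, 5 with counts divided by 4, and 1 to 146 with 1 left out (146 without HDM_CP 45). Between HDM_CP and PBS_CP (1938) they were 1194 with log2(TPM + 1) and no filter and 1207 to 2600 with 1 left out. The averaged HDM effect (3986) gave 1884 without the 3 libraries. On the log2(TPM + 1) scale with a filter, 521 genes were higher and 849 lower between HDM_SAL and PBS_SAL, against 786 and 553 in CPM, and 1555 and 2375 for the averaged HDM effect, against 2266 and 1720. The averaged CP effect (12) gave 176 with DESeq2, 30 with voom, 25 with the run as covariate, 5 with both filtered TPM scales, 4 with log2(TPM + 1) and no filter, 26 without the 3 libraries, and 4 to 102 with 1 left out. The interaction (0) gave 6 with DESeq2 and 0 to 1 with 1 left out. No paired analysis was possible because each library has a number of its own. Gp1bb, at 6 to 97 estimated counts, is limited by depth.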
